A study of Mus musculus with 9 samples.

Results

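The 42 genes described here encode nuclear subunits of the oxidative phosphorylation system. They comprise 16 subunits of complex I, 4 of complex II, 5 of complex III, cytochrome c, 12 of complex IV and 4 of complex V. They were taken from a list of gene symbols. Each gene was read from probes annotated to that gene alone, using the probe with the highest mean over all arrays. All 42 were found among the 19933 genes measured, 36 with 1 probe and 6 with more.

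Messenger RNA was profiled on 9 Affymetrix mouse Gene 1.0 ST arrays, 3 biological replicates for each of 3 preparations of mouse heart cells. The first group was embryonic cardiomyocytes that carried an Nkx-YFP reporter, a yellow fluorescent protein that marks cells of the cardiac lineage. The others were embryonic cardiac fibroblasts and adult cardiac fibroblasts, for which the labels name no reporter, treatment or genotype. The stated purpose of the series was a search for factors made by fibroblasts that make myocytes proliferate. Strain, embryonic stage, adult age, the way fibroblasts were isolated and any culture are details not given in the sources used here.

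Oxidative phosphorylation takes place in the inner mitochondrial membrane. Complexes I and II take electrons from NADH and succinate, complex III passes them to cytochrome c, and complex IV passes them on to oxygen. Complexes I, III and IV pump protons as they do so, and complex V, the ATP synthase, uses the proton gradient to make ATP. Heart muscle is rich in mitochondria, and several complex IV subunits exist as a heart or muscle form and a form found in most tissues. A few subunits are encoded by mitochondrial DNA, and all others, including the 42 described here, by nuclear genes.

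The arrays of a group resembled each other closely, with a mean Pearson correlation over all probes of 0.994 for each cardiomyocyte array and 0.990 to 0.992 for the embryonic fibroblasts. Adult fibroblast replicate 3 stood apart. Its mean correlation with its own group was 0.970, against 0.981 for the other adult arrays, and its values were less spread. Levels are deposited RMA values read as log2, and array medians lay between 7.60 and 7.65. All 42 subunit genes had means above the median of all genes, 7.74, and 34 lay above the 90th percentile, 9.96.

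The labels were checked against marker genes. The 12 fibroblast markers, collagens and other matrix genes among them, were all called higher in embryonic fibroblasts than in cardiomyocytes. Of all genes, 10.3% were called higher there. In adult against embryonic fibroblasts, 7 of the 12 were called higher and 1 lower, where 8.34% and 11.2% of all genes were. The 14 cardiomyocyte markers stayed bright in the embryonic fibroblast arrays. Cardiac troponin T, Tnnt2, a thin filament protein of heart muscle, read 13.88, 13.76 and 13.81 in cardiomyocytes, 13.43, 13.26 and 13.44 in embryonic and 9.40, 10.62 and 9.47 in adult fibroblasts. Over the 14 markers the summed linear signal in embryonic fibroblasts was 56.5% of the cardiomyocyte level, and in adult fibroblasts 4.5%. The log2 of that sum ran from 16.67 to 16.74, from 15.60 to 16.10 and from 11.93 to 12.65 in the 3 groups. Of the 14, 11 were called lower in embryonic fibroblasts than in cardiomyocytes, against 11.1% of all genes. Tnnt2 was among the 3 not called (-0.44, limma adjusted p = 0.328), and the median difference over the 14 was -1.20. The part that cardiomyocyte RNA plays in the embryonic fibroblast values below was not tested. In such bulk samples, fewer cells of a type and less RNA per cell cannot be told apart.

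The subunit genes stood highest in cardiomyocytes, lower in embryonic fibroblasts and lowest in adult fibroblasts. The difference between the embryonic groups is called the embryonic step below, and that between the fibroblast groups the adult step. The mean levels followed that order in 42 of 42 genes, as they did in 21.5% of all genes measured. For 39 of the 42, no array of a group overlapped the arrays of the next group, against 7.7% of all genes. The median over the 42 genes was 12.06, 11.94 and 11.84 in the cardiomyocyte arrays. For the embryonic fibroblasts it was 10.92, 10.85 and 11.29, and for the adult ones 10.00, 9.95 and 9.73. Summed over the 42 genes on the linear scale, the signal of embryonic fibroblasts was 61.9% of that of cardiomyocytes, and that of adult fibroblasts 32.9%. The sums of the cardiomyocyte markers, which their brightest genes carry, were 56.5% and 4.5%. By the median over genes, the markers were 2.30-fold lower in embryonic fibroblasts than in cardiomyocytes (-1.20).

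**Figure D1:**
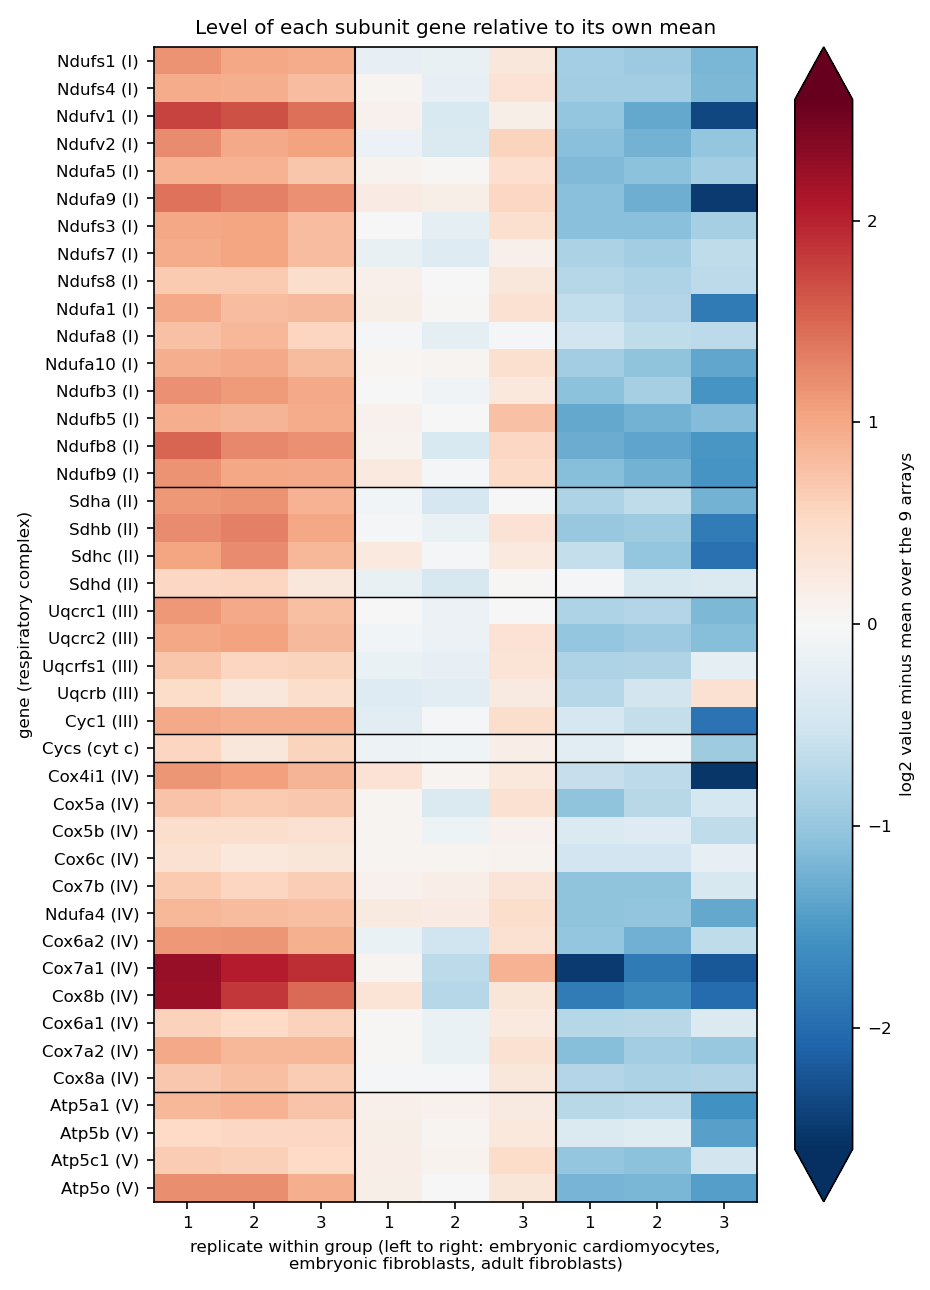
Each row is a subunit gene, grouped by complex, and each column an array; colour gives the log2 value minus that gene's mean over the 9 arrays. Cardiomyocyte arrays are red throughout, embryonic fibroblasts pale and adult fibroblasts mostly blue, with Cox7a1 and Cox8b showing the strongest contrast and adult replicate 3 the darkest cells for Ndufv1, Ndufa9 and Cox4i1.

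Between the embryonic groups, 32 of the 42 genes were called lower in fibroblasts and 0 higher, in limma at a Benjamini-Hochberg adjusted p under 0.05 over all 19933 genes. Of all genes, 11.1% were called lower and 10.3% higher. The median difference was -0.82, which is 1.77-fold lower, with a range from -1.97 to -0.25, and the median over all genes was -0.00. The groups did not overlap in 42 of 42 genes, against 19.8% of all genes lower without overlap. The 10 genes not called were Ndufa1, Sdhc, Uqcrb, Cyc1, Cycs, Cox4i1, Cox6c, Cox7b, Atp5b and Atp5c1. All 42 were called lower when adult replicate 3 was left out, along with 2830 of all genes against 2212. That array is in neither group of this comparison and enters it through the spread shared by the 3 groups.

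Adult fibroblasts were lower again than embryonic fibroblasts, with 37 of 42 genes called lower and 0 higher, where 11.2% of all genes were called lower and 8.34% higher. The median difference was -1.07, or 2.10-fold lower, from -2.27 to -0.09, and the median over all genes was 0.04. In 39 genes the arrays of both groups did not overlap, against 16.1% of all genes. Sdhd, Uqcrfs1, Uqcrb, Cyc1 and Cycs were not called. Beside this, all 14 cardiomyocyte markers were called lower in the same comparison, with a median of -3.52.

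Adult fibroblasts and cardiomyocytes differed most. These groups differ both in cell type and in age, adult against embryonic, which cannot be told apart here. Each difference combines the embryonic and the adult step. In this comparison 41 of 42 genes were called lower in adult fibroblasts and 0 higher, against 18.2% of all genes called lower and 17.4% higher. The median difference was -1.95, or 3.88-fold lower, from -4.25 to -0.69, and over all genes it was 0.06. Without overlap were 41 of the 42 genes, against 21.7% of all genes. The cardiomyocyte markers had a median of -4.66 here. Uqcrb was the gene not called. The comparisons share groups: embryonic fibroblasts enter the first and the second, so their counts are not independent.

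**Figure D2:**
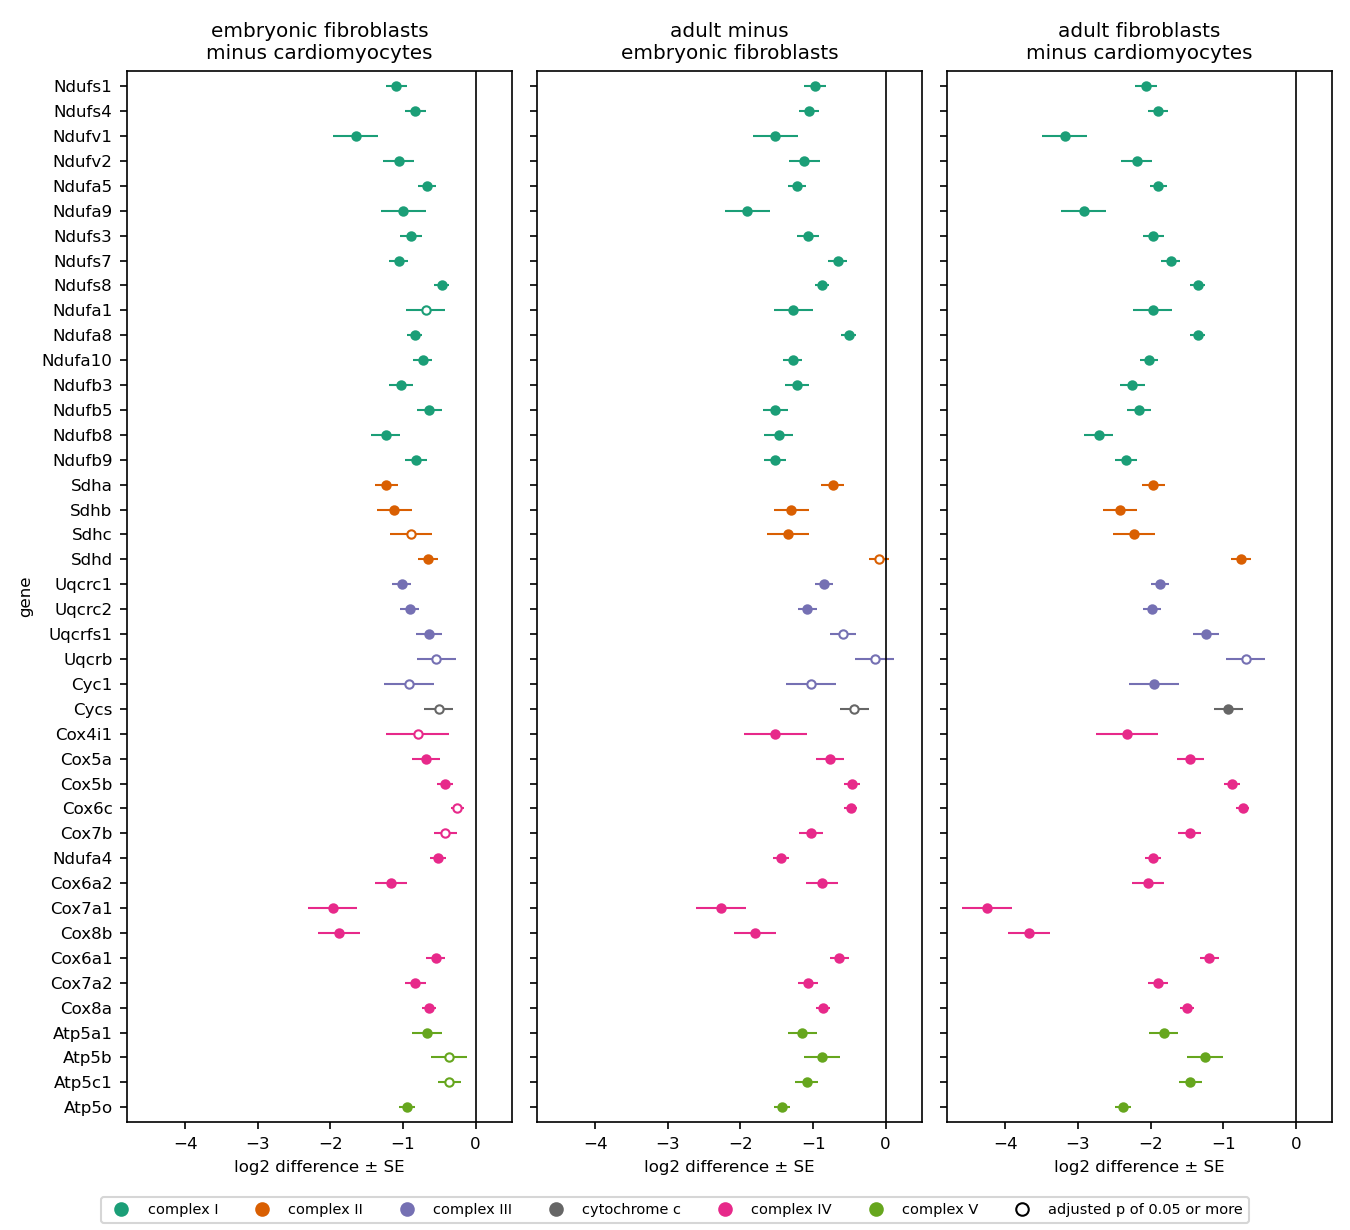
Log2 difference with its standard error for each subunit gene in the 3 comparisons, coloured by complex, with open circles for an adjusted p of 0.05 or more. All points lie left of 0, and Cox7a1 (-4.25) and Cox8b (-3.68) lie farthest left between adult fibroblasts and cardiomyocytes.

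Complex I, the NADH dehydrogenase, has an N module that oxidizes NADH, a Q module that reduces ubiquinone and a membrane arm that pumps protons. Of its 16 subunit genes, 15 were called lower in embryonic fibroblasts than in cardiomyocytes, and all 16 were called lower in each comparison with adult fibroblasts. In the 3 comparisons, 11.1%, 11.2% and 18.2% of all genes were called lower. The median differences were -0.86 between the embryonic groups, -1.22 between the fibroblast groups and -2.04 between adult fibroblasts and cardiomyocytes. The 3 parts of the complex gave similar medians for the last comparison, -2.12 for the 4 N module genes, -1.89 for the 5 Q module genes and -2.16 for the 7 genes of the membrane arm.

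Ndufv1, the N module subunit that holds the flavin and the NADH site, changed the most within complex I. It read 11.01, 10.91 and 10.70 in cardiomyocytes, 9.38, 8.86 and 9.42 in embryonic and 8.25, 7.94 and 6.89 in adult fibroblasts. The 3 groups did not overlap, and adult replicate 3 lay below the other adult arrays. The differences were -1.65 ± 0.31 (SE, adjusted p = 0.00445) between the embryonic groups and -1.52 ± 0.31 (adjusted p = 0.00693) between the fibroblast groups. From cardiomyocytes to adult fibroblasts the level was 9.06-fold lower. Ndufs1, the largest core subunit and the carrier of several iron-sulphur clusters, read 12.04, 11.88 and 11.84, then 10.65, 10.67 and 11.17, then 9.98, 9.93 and 9.68 in the groups in the same order. Its arrays were also fully separated, and its differences of -1.09 and -0.97 were of like size. Ndufs4 and Ndufv2, the other N module genes, were 3.72-fold and 4.55-fold lower in adult fibroblasts than in cardiomyocytes.

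In the Q module, the accessory subunit Ndufa9 read 12.56, 12.46 and 12.33 in cardiomyocytes, 11.36, 11.29 and 11.69 in embryonic and 10.06, 9.88 and 8.66 in adult fibroblasts. The last value belonged to adult replicate 3 and made the adult group the widest. Between the embryonic groups it was 2.01-fold lower in fibroblasts, which was called with little to spare (adjusted p = 0.0467), and 8 of 17 alternatives did not call it. Between adult fibroblasts and cardiomyocytes it was 7.55-fold lower, and the difference was -2.92, or -2.48 without adult replicate 3. The core iron-sulphur subunits Ndufs7 and Ndufs8 were 3.29-fold and 2.55-fold lower in that comparison, Ndufs3 3.89-fold and Ndufa5 3.70-fold.

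Among the membrane arm genes, the accessory subunit Ndufb8 read 11.55, 11.29 and 11.23 in cardiomyocytes, 10.12, 9.64 and 10.58 in embryonic and 8.75, 8.66 and 8.52 in adult fibroblasts. It fell by 1.24 and then by 1.47 on the log2 scale, 6.55-fold in all. Ndufb9 (5.07-fold), Ndufb3 (4.75-fold), Ndufb5 (4.46-fold) and Ndufa10 (4.05-fold) followed between adult fibroblasts and cardiomyocytes. Ndufa8 was the least changed accessory subunit of this arm, at 2.55-fold. The embryonic step of Ndufb5 (-0.64, adjusted p = 0.0247) was not called by 5 of 17 alternatives. Ndufa1 was not called between the embryonic groups (-0.69 ± 0.27, adjusted p = 0.109), although its arrays did not overlap. Its adult values were 11.13, 11.01 and 9.93, with adult replicate 3 again the lowest.

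Complex II, succinate dehydrogenase, is also an enzyme of the citric acid cycle. Of its 4 genes, 3 were called lower between the embryonic groups, 3 between the fibroblast groups and 4 between adult fibroblasts and cardiomyocytes. The shares of all genes called lower were 11.1%, 11.2% and 18.2%. Sdha, the flavoprotein subunit, read 11.89, 11.93 and 11.68 in cardiomyocytes, 10.69, 10.34 and 10.78 in embryonic and 9.97, 10.10 and 9.55 in adult fibroblasts. Its difference was -1.23 ± 0.16 between the embryonic groups (adjusted p = 0.000775) and -0.73 ± 0.16 between the fibroblast groups (adjusted p = 0.0107). Sdhb, the iron-sulphur subunit, fell by 1.12 and by 1.30, and the membrane anchor Sdhc was 4.69-fold lower in adult fibroblasts than in cardiomyocytes.

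Sdhd, the other membrane anchor, departed from this pattern. It read 9.48, 9.50 and 9.24 in cardiomyocytes, 8.74, 8.53 and 8.97 in embryonic and 8.88, 8.53 and 8.56 in adult fibroblasts. The fibroblast arrays overlapped fully. Between the embryonic groups it was called lower (-0.66, adjusted p = 0.00815). Between the fibroblast groups the difference was -0.09, with an interval at 95% from -0.40 to 0.22 and an adjusted p of 0.71, and its sign turned under 2 alternatives.

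Complex III, cytochrome bc1, gave 3, 2 and 4 of 5 genes called lower in the 3 comparisons, against 11.1%, 11.2% and 18.2% of all genes. The core proteins Uqcrc1 and Uqcrc2 carried both steps. Uqcrc1 read 10.68, 10.55 and 10.35 in cardiomyocytes, 9.55, 9.41 and 9.55 in embryonic and 8.75, 8.80 and 8.40 in adult fibroblasts, differences of -1.02 and -0.85. Uqcrc2 was 3.96-fold lower in adult fibroblasts than in cardiomyocytes. Uqcrfs1, the Rieske iron-sulphur protein, had an adjusted p of 0.0345 between the embryonic groups and 0.0521 between the fibroblast groups, and its differences were -0.64 and -0.59. Of 17 alternatives, 6 did not call the first and 4 called the second, among them the fit without adult replicate 3 (-0.77, adjusted p = 0.0072).

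Cyc1, which encodes cytochrome c1, read 11.89, 11.84 and 11.84 in cardiomyocytes, 10.61, 10.85 and 11.35 in embryonic and 10.46, 10.28 and 8.99 in adult fibroblasts. The groups did not overlap, but the adult arrays had an SD of 0.80. Its differences of -0.92 and -1.03 were not called (adjusted p = 0.0906 and 0.0673). Without adult replicate 3 they were -0.92 and -0.57, with adjusted p of 0.003 and 0.054. Between adult fibroblasts and cardiomyocytes Cyc1 was called, 3.87-fold lower.

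Uqcrb, a small subunit near the ubiquinone site, was called in none of the 3 comparisons. It read 12.08, 11.90 and 12.05 in cardiomyocytes, 11.27, 11.31 and 11.84 in embryonic and 10.86, 11.12 and 11.99 in adult fibroblasts. Adult replicate 3 lay at the level of the cardiomyocytes and the other adult arrays below it. The difference between adult fibroblasts and cardiomyocytes was -0.69 (adjusted p = 0.0741) and that between the fibroblast groups -0.15, with an interval at 95% from -0.75 to 0.45. Without adult replicate 3, all 42 genes including Uqcrb were called lower in adult fibroblasts than in cardiomyocytes. The other 2 probes of Uqcrb gave -0.81 and -0.71 for the same comparison.

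Cytochrome c itself, the mobile carrier between complexes III and IV, is encoded by Cycs. It read 13.01, 12.74 and 13.04 in cardiomyocytes, 12.31, 12.33 and 12.63 in embryonic and 12.15, 12.33 and 11.52 in adult fibroblasts. The fibroblast groups overlapped. Only the difference between adult fibroblasts and cardiomyocytes was called (-0.93, adjusted p = 0.00441), and those of -0.51 and -0.43 for the smaller steps were not. A further probe of the gene gave -0.65 in the embryonic and -0.29 in the adult step. Another put nearly all of the difference into the embryonic step, -1.12 against -0.04, so the split between the steps differed with the probe. Which of these probes also reads processed copies of Cycs was not tested.

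Complex IV, cytochrome c oxidase, held both the most and among the least changed genes. Of its 12 genes, 9 were called lower between the embryonic groups and all 12 in each comparison with adult fibroblasts. Among all genes, 11.1%, 11.2% and 18.2% were called lower in the 3 comparisons. The 3 heart-type isoforms, Cox6a2, Cox7a1 and Cox8b, had median differences of -1.88, -1.80 and -3.68 over the 3 comparisons. Their 3 ubiquitous counterparts, Cox6a1, Cox7a2 and Cox8a, had medians of -0.64, -0.86 and -1.50. Setting the heart-type isoforms aside left 29, 34 and 38 of 39 genes called lower, with medians of -0.80, -1.07 and -1.90, so the pattern of the 42 genes did not rest on them.

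Cox7a1, the heart and muscle form of subunit 7a, read 12.26, 12.03 and 11.91 in cardiomyocytes, 10.06, 9.32 and 10.90 in embryonic and 7.51, 8.15 and 7.79 in adult fibroblasts. The groups did not overlap, and the embryonic fibroblast arrays were the most widely spread of the 42 genes in that group (SD 0.79, n = 3). The level was 3.93-fold lower in embryonic fibroblasts than in cardiomyocytes (-1.97 ± 0.34, adjusted p = 0.00289). It was 4.83-fold lower again in adult fibroblasts (adjusted p = 0.00127), or 19.0-fold in all (adjusted p = 9.38e-06).

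Cox8b, the heart form of subunit 8, read 11.75, 11.35 and 10.98 in cardiomyocytes, 9.85, 8.76 and 9.82 in embryonic and 7.69, 7.84 and 7.50 in adult fibroblasts. The arrays of the groups were again apart, with embryonic fibroblast replicate 2 the lowest of its group, as for Cox7a1. It was 3.69-fold lower in the first step and 3.48-fold in the next, 12.9-fold in all (adjusted p = 9.36e-06). Cox6a2, the heart form of subunit 6a, read 11.17, 11.19 and 10.95, then 9.87, 9.52 and 10.42, then 9.02, 8.79 and 9.37, and was 4.12-fold lower in adult fibroblasts than in cardiomyocytes. Its adult step of -0.88 had an adjusted p of 0.0204 and was not called by 4 of 17 alternatives.

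Whether a heart-type isoform fell further than its counterpart was asked within arrays, as the log2 value of the heart form minus that of the ubiquitous form. Each probe has its own response, so the change of this difference between groups was read and not its level. An exact permutation test of the 3-group F statistic over the 1680 ways of assigning the 9 arrays gives no p below 0.00357, and the p-values were adjusted over the 4 pairs compared. The heart-type isoforms were picked with earlier results on these arrays known, which showed Cox7a1 and Cox8b to differ strongly. The tests of those 2 pairs are therefore no independent support.

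For Cox7a1 minus Cox7a2 the difference was -0.21, -0.30 and -0.42 in cardiomyocytes, -1.44, -1.97 and -0.96 in embryonic fibroblasts and -2.85, -2.42 and -2.69 in adult fibroblasts. It shifted by -1.14 and by a further -1.20, with no overlap between groups (exact permutation p = 0.00357, adjusted 0.00714). For Cox8b minus Cox8a the shifts were -1.24 and -0.94, with the same exact permutation p. Cox7a1 and Cox8b thus fell further than their counterparts at both steps. Cox6a2 minus Cox6a1 shifted by -0.62 between the embryonic groups and by -0.24 between the fibroblast groups, where the arrays overlapped (exact permutation p = 0.0107, adjusted 0.0143). Without cardiomyocyte replicate 1 that pair was no longer called (adjusted exact permutation p = 0.0619).

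The adenine nucleotide translocases exchange ADP and ATP across the inner membrane and also have a heart and muscle form, Slc25a4, beside the more general Slc25a5. Their difference was 0.44 ± 0.10 (SD, n = 3) in cardiomyocytes and 0.41 ± 0.09 in embryonic fibroblasts, whose arrays overlapped. It was lower in adult fibroblasts, with a shift of -0.58 from the embryonic fibroblasts (exact permutation p = 0.0286 over the 3 groups, also after adjustment). Unlike the cytochrome c oxidase pairs, this pair showed no separation between the embryonic groups. Leaving out any cardiomyocyte array but replicate 2, or any embryonic fibroblast array, ended the call.

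**Figure D3:**
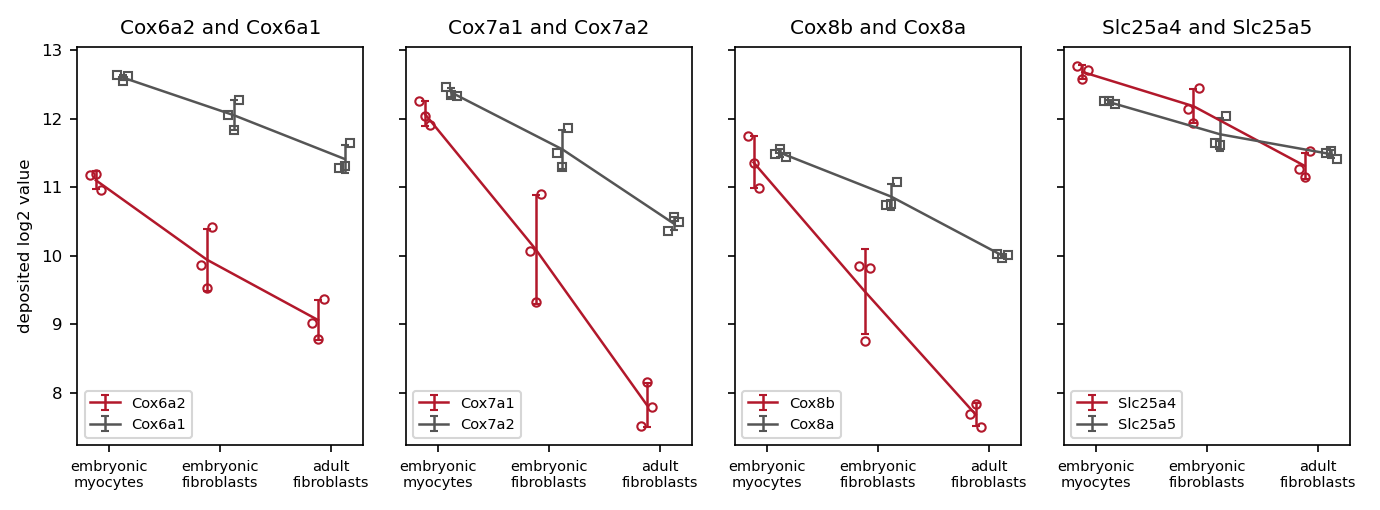
Deposited log2 values of 4 pairs of isoforms by group, the heart-type form as red circles and the ubiquitous form as grey squares; points are arrays, and lines join group means with bars of 1 SD (n = 3). The gap widens in adult fibroblasts for the pairs of Cox7a1 and Cox8b, by -2.34 and -2.19 against cardiomyocytes.

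Promoter sequences were read to see what these genes share outside their levels. Windows of 250 bases before the start site were taken from RefSeq (GRCm38.p6), which gave 34 windows for 32 of the 42 genes, among 32851 windows in all. The CpG dinucleotide, frequent in promoters of genes active in most tissues, occurred with a median of 16 per window in these genes and 6 in all windows. The lowest counts were 1 for Cox8b, 4 for Cox7a1 and 5 for Cox7b, the windows below the median of all. The counterparts Cox8a, Cox7a2 and Cox6a1 held 11, 14 and 26. The windows of the heart-type forms with a sequence and of their counterparts are printed here for that contrast, on the coding strand from 5′ to 3′:
Cox7a1, chr7:30183921-30184170, plus strand: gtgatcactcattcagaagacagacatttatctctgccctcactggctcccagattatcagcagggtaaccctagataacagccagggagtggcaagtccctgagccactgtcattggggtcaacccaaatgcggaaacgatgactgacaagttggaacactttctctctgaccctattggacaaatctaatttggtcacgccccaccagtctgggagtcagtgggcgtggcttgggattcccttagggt
Cox8b, chr7:140900447-140900696, minus strand: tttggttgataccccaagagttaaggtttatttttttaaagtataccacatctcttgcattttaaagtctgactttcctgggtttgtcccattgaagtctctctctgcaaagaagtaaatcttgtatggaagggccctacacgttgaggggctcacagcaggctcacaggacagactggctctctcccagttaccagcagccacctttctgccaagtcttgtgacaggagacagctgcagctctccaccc
Cox7a2, chr9:79759854-79760103, minus strand: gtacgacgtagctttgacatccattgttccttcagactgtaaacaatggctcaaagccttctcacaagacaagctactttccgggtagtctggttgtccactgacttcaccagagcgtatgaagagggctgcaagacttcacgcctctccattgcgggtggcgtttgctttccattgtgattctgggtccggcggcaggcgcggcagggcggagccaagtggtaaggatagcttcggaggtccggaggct
Cox8a, chr19:7217617-7217866, minus strand: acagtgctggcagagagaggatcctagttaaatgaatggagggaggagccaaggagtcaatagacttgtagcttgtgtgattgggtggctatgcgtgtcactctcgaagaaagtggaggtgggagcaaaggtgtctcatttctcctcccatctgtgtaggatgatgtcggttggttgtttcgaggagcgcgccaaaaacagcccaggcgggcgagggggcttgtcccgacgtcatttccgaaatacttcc
Cox6a1, chr5:115348959-115349208, minus strand: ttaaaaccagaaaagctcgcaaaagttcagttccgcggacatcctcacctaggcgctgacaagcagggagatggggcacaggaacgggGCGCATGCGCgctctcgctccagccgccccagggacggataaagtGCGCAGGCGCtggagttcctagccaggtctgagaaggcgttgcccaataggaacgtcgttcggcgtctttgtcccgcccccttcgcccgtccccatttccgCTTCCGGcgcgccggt

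Capitals in the last sequence mark 2 matches to GCGCA, any base and GCGC, the letters searched for nuclear respiratory factor 1, and 1 match to CCGGAAG, those searched for ETS factors such as GA-binding protein, which appears as its reverse complement. These factors are known regulators of respiratory chain genes. Both strands were searched, and the motifs do not overlap each other here. The first motif was present in 7 of the 34 windows, or 20.6%, and in 3.74% of all windows. The 7 windows belong to 6 genes, Atp5c1, Cox6a1, Ndufa5, Ndufa8, Sdha and Sdhd. The letters of this motif contain CpG, which these windows hold more often than all windows, with medians of 16 and 6. The part of CpG content in this share and in those below was not tested. The ETS letters were in 3 windows, 8.82%, in Cox6a1, Ndufs3 and Sdhd, and in 6.91% of all. AAGGTCA, searched for oestrogen-related receptors, was in 0 of 34 and in 4.08% of all windows, and CTA and TAG with 4 bases between, searched for MEF2, in 1 (Cox5b) and in 3.20%. A match of letters shows no binding, and a missing match says only that these letters are not in the window. Of the 5 genes not called between the fibroblast groups, Uqcrb and Cyc1 had no window to search, and Uqcrfs1 and Cycs held neither of the first motifs. Sdhd held both, as did Cox6a1, which was called lower. The window of Sdhd is printed to set beside that of Cox6a1, with the matches in capitals as before:
Sdhd, chr9:50603850-50604099, minus strand: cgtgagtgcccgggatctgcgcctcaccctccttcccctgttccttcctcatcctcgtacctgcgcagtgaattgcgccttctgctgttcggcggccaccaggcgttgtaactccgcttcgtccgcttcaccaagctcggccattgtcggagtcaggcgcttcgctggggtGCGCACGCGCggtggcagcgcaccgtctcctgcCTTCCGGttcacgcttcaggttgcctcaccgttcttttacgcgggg

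The remaining 6 complex IV genes had median differences of -0.47, -0.90 and -1.45 over the 3 comparisons. Ndufa4, first described as a complex I subunit and now assigned to complex IV, read 12.82, 12.77 and 12.74 in cardiomyocytes, 12.19, 12.16 and 12.41 in embryonic and 10.91, 10.93 and 10.61 in adult fibroblasts. Its groups were well apart, and most of its difference lay between the fibroblast groups (-1.44 ± 0.11, 2.71-fold lower, adjusted p = 2.14e-05) and not between the embryonic ones (-0.52). Cox4i1, the common form of the largest nuclear subunit, read 12.68, 12.60 and 12.42, then 11.90, 11.60 and 11.80, then 10.92, 10.84 and 8.99. Its SD of 1.09 in adult fibroblasts was the largest of the 42 genes in any group. Between the embryonic groups it was not called (-0.80, adjusted p = 0.252), but without adult replicate 3 the adjusted p was 0.000545. Its adult step was -1.52 (adjusted p = 0.034) with that array and -0.89 without it, and 7 of 17 alternatives did not call it.

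Cox6c changed little, from 13.58, 13.45 and 13.50 in cardiomyocytes to 13.26, 13.25 and 13.27 in embryonic and 12.68, 12.68 and 12.98 in adult fibroblasts. Its difference between the embryonic groups was -0.25 (adjusted p = 0.0921), and that between adult fibroblasts and cardiomyocytes -0.73. A second probe of the gene gave -1.51 for the last comparison, so the size of its difference varied with the probe. Cox5b was 1.85-fold lower in adult fibroblasts than in cardiomyocytes, and Cox5a and Cox7b were 2.73-fold and 2.74-fold lower. Of 17 alternatives, 6 did not call the embryonic step of Cox5a and 5 its adult step. For Cox5b these were 4 and 3.

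Complex V had 2, 4 and 4 of its 4 genes called lower, against 11.1%, 11.2% and 18.2% of all genes. Its median differences were -0.52, -1.12 and -1.64. Atp5o, the subunit that links the catalytic head to the peripheral stalk, read 12.07, 12.07 and 11.81 in cardiomyocytes, 11.03, 10.88 and 11.18 in embryonic and 9.67, 9.69 and 9.44 in adult fibroblasts. The groups were separate with little spread, and it was 5.21-fold lower in adult fibroblasts than in cardiomyocytes (adjusted p = 5.57e-07). Atp5b, the catalytic beta subunit, read 12.92, 12.94 and 12.94, then 12.54, 12.47 and 12.67, then 12.01, 12.07 and 10.98. Its embryonic step of -0.37 was not called (adjusted p = 0.365), and its adult step of -0.88 was (adjusted p = 0.0338), though 8 of 17 alternatives did not call it. The alpha subunit Atp5a1 was 3.54-fold and the gamma subunit Atp5c1 2.73-fold lower in adult fibroblasts than in cardiomyocytes. The embryonic step of Atp5a1, -0.67, was called near the threshold (adjusted p = 0.043), and 7 of 17 alternatives did not call it.

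Within the embryonic fibroblasts the subunit genes deviated together. Replicate 3 was the highest array of its group for 38 of the 42 genes, as it was for 30.2% of all genes, and replicate 2 the lowest for 35, against 28.8% of all genes. The 14 cardiomyocyte markers ordered these arrays in the same way, with replicate 3 highest for 13 and replicate 2 lowest for all 14. The part of the cardiomyocyte markers in this order was not tested. The median SD of the subunit genes in this group was 0.22, against 0.10 over all genes. In cardiomyocytes the SDs were 0.11 and 0.10, and the genes deviated together there too. Replicate 1 was the highest for 25 genes (35.1% of all genes) and replicate 3 the lowest for 31 (39.2%), and the markers were highest on replicate 1 for 8 of 14 and lowest on replicate 3 for 9. In adult fibroblasts the SDs were 0.22 and 0.14. Each adult replicate was the highest array for 14 genes, against 28.8%, 24.7% and 46.5% of all genes for replicates 1 to 3, and replicate 3 was the lowest for 24, against 32.1%.

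**Figure D4:**
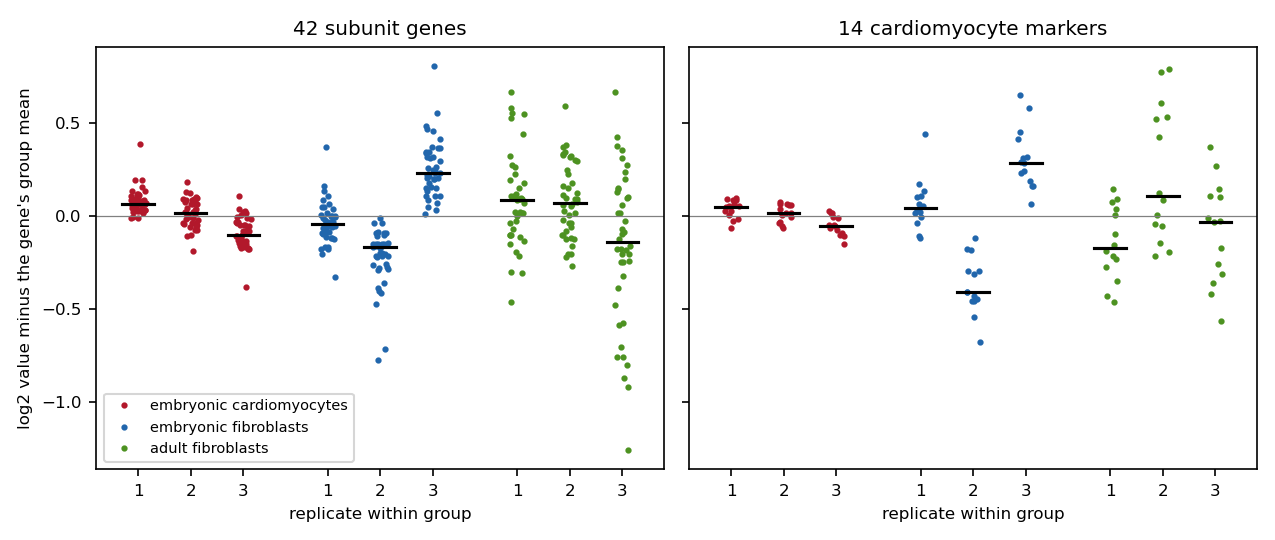
Each point is a gene on 1 array, as the log2 value minus the gene's group mean, for the 42 subunit genes and the 14 cardiomyocyte markers; black bars are medians per array. In embryonic fibroblasts both gene sets are highest on replicate 3 and lowest on replicate 2, while adult replicate 3 shows a wide spread of the subunit genes.

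Other genes of the system were taken from 12 lists. For comparison, 11.1%, 11.2% and 18.2% of all genes were called lower in the 3 comparisons, and 10.3%, 8.34% and 17.4% higher. The medians over all genes were -0.00, 0.04 and 0.06. Of the complex I subunits outside the 42, 17, 14 and 18 of 18 were called lower in the 3 comparisons, with medians of -0.86, -0.86 and -1.71. Ndufs6, an accessory N module subunit, was the most changed of them between adult fibroblasts and cardiomyocytes (-2.69). The other complex III subunits gave 3, 4 and 4 of 4, led by Uqcr11 (-2.79), and the other ATP synthase subunits 7, 11 and 13 of 13, with Atp5g2, which encodes the membrane ring, at -2.57 and Atp5e at -2.47. Counts between the embryonic groups depended on single arrays. The 17 complex I genes became 10 without cardiomyocyte replicate 1 or 2 or embryonic fibroblast replicate 1 or 2. The 7 ATP synthase genes became 4 without cardiomyocyte replicate 1, 3 without embryonic fibroblast replicate 2 and 12 without adult replicate 3.

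The 7 other complex IV genes, several of which are forms known from testis or lung, moved little as a group, with medians of -0.09, -0.10 and -0.14. Cox6b1, the common form of subunit 6b, was called lower in adult fibroblasts than in embryonic fibroblasts (-1.28) and cardiomyocytes (-1.74), and Cox6b2 than in cardiomyocytes (-1.10). Ndufa4l2, a relative of Ndufa4 induced by low oxygen, went the other way. It read 7.08, 7.04 and 6.60 in cardiomyocytes, 7.75, 7.48 and 7.26 in embryonic and 7.51, 7.45 and 7.22 in adult fibroblasts. It was called higher in embryonic fibroblasts than in cardiomyocytes (0.59, adjusted p = 0.028) and higher in adult fibroblasts (0.49, adjusted p = 0.0411), near the threshold in both. With each array left out in turn, its list held 0 or 1 gene called higher in either comparison.

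Of the subunits encoded by mitochondrial DNA, 2 of 13 were analysed here, and neither was called in any comparison. COX2, subunit 2 of complex IV, read 13.06, 12.88 and 13.03 in cardiomyocytes, 12.84, 12.82 and 13.01 in embryonic and 12.59, 12.87 and 13.06 in adult fibroblasts. Its arrays overlapped in all comparisons, and the interval at 95% of the difference between adult fibroblasts and cardiomyocytes ran from -0.42 to 0.12. ND3, a complex I subunit, differed by -0.29 in that comparison (adjusted p = 0.0809). Without adult replicate 3, 1 of these 2 genes was called lower there.

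Assembly factors, which help to build the complexes, and mitochondrial ribosomal proteins, which serve to make the subunits encoded by mitochondrial DNA, had a larger median difference in the embryonic step than in the adult one. Of 39 assembly factors, 33 were called lower between the embryonic groups, but 13 lower and 2 higher between the fibroblast groups, with medians of -0.68 and -0.15. Among 25 mitochondrial ribosomal proteins the counts were 21 and 6, with medians of -0.63 and -0.20. The 21 became 12 without cardiomyocyte replicate 1 or 2, and 13 without embryonic fibroblast replicate 1 or 2. For the 42 subunit genes, the medians of the same comparisons were -0.82 and -1.07, and the adult step was the larger for 30 genes and the smaller for 12. The difference between these lists was not tested. Ndufaf5, an assembly factor of complex I, was 4.58-fold lower in adult fibroblasts than in cardiomyocytes, and Uqcc1, an assembly factor of complex III, was lower by -1.56 in the embryonic step.

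The citric acid cycle and pyruvate dehydrogenase feed electrons to the chain. Of 22 genes, 20, 11 and 21 were called lower, with medians of -0.92, -0.76 and -1.87. Idh2, the mitochondrial NADP-dependent isocitrate dehydrogenase, had the largest difference among them and read 12.62 ± 0.08 in cardiomyocytes, 11.40 ± 0.23 in embryonic and 8.17 ± 0.11 in adult fibroblasts (SD, n = 3), 21.9-fold lower from first to last. The carriers and creatine kinases gave 11, 7 and 13 of 15, among them Slc25a13, an aspartate-glutamate carrier, at -2.82 between adult fibroblasts and cardiomyocytes. Their 11 became 7 without cardiomyocyte replicate 1 or 2 or embryonic fibroblast replicate 1 or 2. The list on import, cristae and mitochondrial dynamics gave 10, 4 and 13 of 20 lower and 0, 2 and 2 higher. Apool, a cristae organising protein, was the most changed there (-2.93).

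Genes for uncoupling and antioxidant proteins gave 6, 2 and 8 of 12 lower, and 1, 1 and 0 higher. Nnt, the proton-driven transhydrogenase of the inner membrane, was 9.08-fold lower in adult fibroblasts than in cardiomyocytes. Sod2, the superoxide dismutase of the matrix, was lower in embryonic fibroblasts than in cardiomyocytes (2.01-fold, adjusted p = 0.00452) and higher in adult than in embryonic fibroblasts (1.35, adjusted p = 0.000885). Over the 12 lists together, 133, 75 and 150 of 194 genes were called lower and 5, 8 and 8 higher, with medians of -0.66, -0.35 and -1.05.

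**Figure D5:**
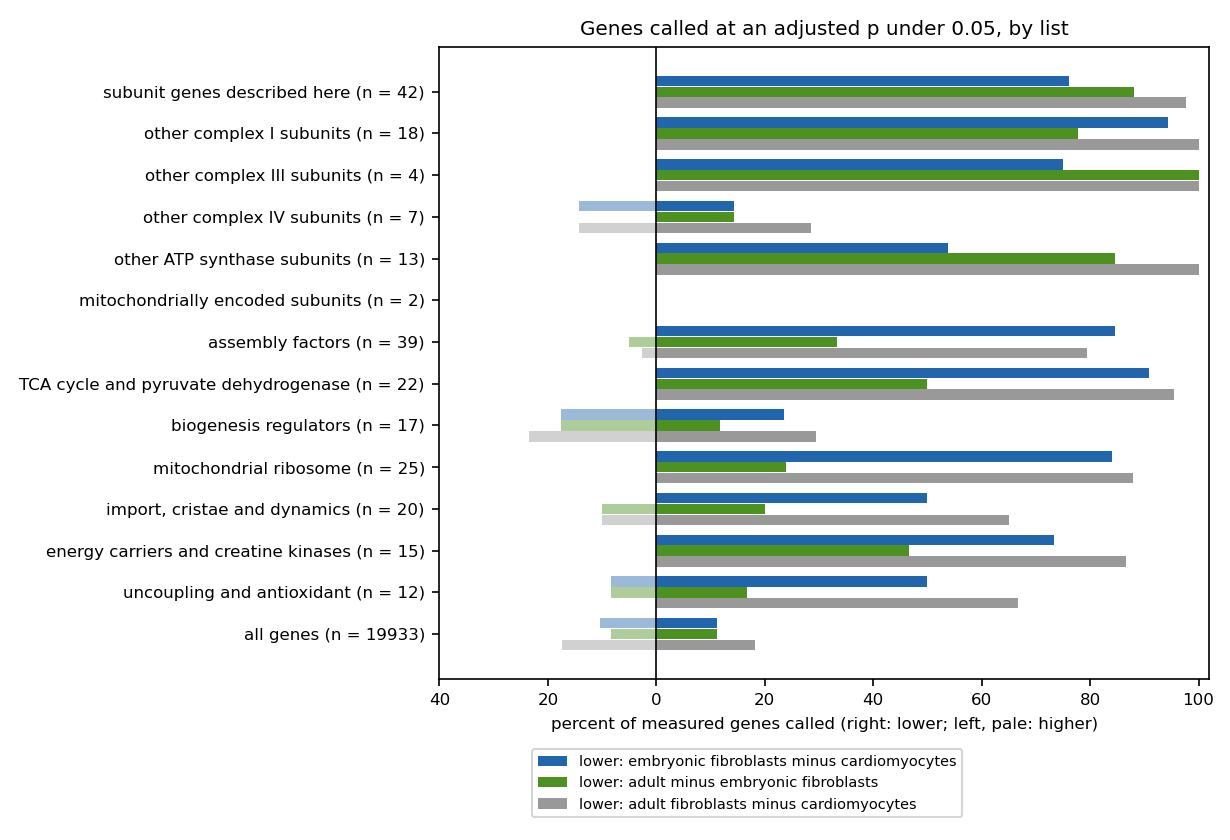
Percent of the measured genes of each list called lower (right) and higher (left, pale) in the 3 comparisons, with all 19933 genes at the bottom. The subunit genes described here and the other subunits of complexes I and III were called lower in most genes of all comparisons, and the other ATP synthase subunits in 7, 11 and 13 of 13, while assembly factors and ribosomal proteins were mostly called lower in comparisons with cardiomyocytes.

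Of 17 regulators of mitochondrial biogenesis, 4, 2 and 5 were called lower and 3, 3 and 4 higher, with medians of -0.06, 0.03 and 0.04. The shares over all genes were 11.1%, 11.2% and 18.2% lower and 10.3%, 8.34% and 17.4% higher. Ppargc1a, the coactivator PGC-1 alpha that drives respiratory gene expression, read 11.54, 11.59 and 11.41 in cardiomyocytes, 9.72, 9.26 and 10.62 in embryonic and 7.58, 7.84 and 7.62 in adult fibroblasts. Its arrays did not overlap between groups, and in embryonic fibroblasts they had the order of the subunit genes, with replicate 3 highest and replicate 2 lowest. It was 3.13-fold lower in embryonic fibroblasts than in cardiomyocytes (adjusted p = 0.00271) and 14.2-fold lower in adult fibroblasts (adjusted p = 5.31e-06). Esrrg, an oestrogen-related receptor active in heart, read 10.43, 10.63 and 10.33, then 8.46, 8.29 and 9.16, then 8.15, 7.35 and 7.69. It fell by 1.83 in the embryonic step and fell by 0.91 in the adult step (adjusted p = 0.0302).

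The related receptor Esrra showed no detectable difference, with an interval at 95% from -0.16 to 0.13 between adult fibroblasts and cardiomyocytes. Its group means of 7.50, 7.45 and 7.49 lay below the median of all genes, 7.74. Whether its probe responds to the transcript was not tested. Nrf1, which encodes nuclear respiratory factor 1, Gabpa, a subunit of GA-binding protein, and Tfam, which packs and transcribes mitochondrial DNA, were not called in any comparison. Their differences between adult fibroblasts and cardiomyocytes were 0.16, -0.18 and 0.04. For Tfam the steps had opposite signs, -0.29 between the embryonic groups (interval at 95% from -0.53 to -0.05, adjusted p = 0.0894) and 0.32 between the fibroblast groups (0.09 to 0.56, adjusted p = 0.0627). Tfb1m, which modifies mitochondrial ribosomal RNA, was lower in embryonic fibroblasts than in cardiomyocytes (-1.51). Pprc1, a coactivator related to PGC-1 alpha, rose at each step, with means of 8.44, 9.06 and 9.68 and differences of 0.61 (adjusted p = 0.00315) and 0.62 (adjusted p = 0.00287).

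Signals of other cell types moved with the groups. The summed signal of 12 endothelial markers was 274% of the cardiomyocyte level in embryonic fibroblasts and 200% in adult fibroblasts, and that of 13 macrophage markers 188% and 352%. For 6 red cell markers it was 39.5% and 9.79%, and for 10 epicardial markers 155% and 92.3%. Fibroblast markers stood at 289% and 589%. Against cardiomyocytes, 3 red cell markers were called lower in each fibroblast group, and 3 were not called. Epicardial markers gave 4 higher and 0 lower in embryonic fibroblasts, and 1 higher and 4 lower in adult fibroblasts. Endothelial markers were called higher for 10 and 6 of 12, and macrophage markers for 8 and 12 of 13. Smooth muscle and pericyte markers were split: their sum, which the brightest genes carry, was 62.5% and 50.9%. Of the 12, 3 were called lower and 3 higher in embryonic fibroblasts than in cardiomyocytes, and 5 lower and 4 higher in adult fibroblasts. The shares over all genes in these comparisons were 11.1% and 18.2% lower and 10.3% and 17.4% higher. The part of these cells in the levels of the subunit genes was not tested.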

How the data were processed

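The arrays measured total RNA extracted with Trizol and labelled with biotin, per the labels' protocols. The authors' deposited values come from RMA, per the submitters' processing notes, and were read here as log2. RMA corrects background, normalizes between arrays and combines the probes of each transcript. The log base is not stated and was inferred from the range, 2.70 to 14.20. Version, genome build and annotation are details not given in the sources used here. Of 28767 probes, 21776 had a single gene symbol in the platform annotation, 1618 had several and 5373 none, and the last 2 kinds were left out; 21686 of the named probes matched RefSeq by Entrez identifier, with 0 symbols changed. Of the 19933 genes, 993 had more than 1 probe, and the brightest was used.

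A mean per group was estimated in limma (version 3.58.1, R 4.3.3, functions lmFit and eBayes) from all 9 arrays, with no filter, and two-sided p-values were adjusted by Benjamini-Hochberg over all genes; a call is an adjusted p under 0.05. Number of arrays limits the precision. The design text calls the replicates biological. No covariate was used, since no pairing by replicate number is stated. Same-numbered arrays of different groups deviated with correlations of -0.20 to 0.20. With 3 arrays per group, these values cannot decide whether the numbers pair samples. Isoform pairs were tested by exact permutation. Lists are described by counts and medians beside those of all genes. Besides the 42 subunit genes, the text names up to 4 called genes with the largest difference of each other list and comparison, the isoform pairs, and Ppargc1a, Esrra, Esrrg, Nrf1, Gabpa and Tfam. Members and lists were chosen with earlier results of these data known. The fit was tested on simulated data. Alternatives were scaling, a filter on dim genes, the probe rule, array weights, a variance trend, 2-group fits, the replicate number as a block, and leaving out each array. Figures were drawn with matplotlib 3.10.9, and pairs were tested in Python 3.11.15 with numpy 2.4.6.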

Additional observations from a re-analysis of the deposited data

How the results depend on the processing

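The direction of the 42 subunit genes between the embryonic groups, and between adult fibroblasts and cardiomyocytes, was the same under all 17 alternatives run, with 0 genes called higher. Between the fibroblast groups, 2 genes that were not called changed sign: Sdhd was at 0.06 with array weights and ranged from -0.20 to 0.02 with each array left out, and Uqcrb from -0.49 to 0.08. The values above 0 came without embryonic fibroblast replicate 3 (0.02 and 0.03) and, for Uqcrb, without adult fibroblast replicate 1. Leaving out each array gave 25 to 42, 32 to 38 and 41 to 42 genes called lower in the 3 comparisons. The counts over all 19933 genes moved too in these fits, from 1452 to 2830, 1779 to 2476 and 3063 to 3790. Array weights gave 42, 38 and 42 of the 42 subunit genes, quantile normalization 30, 35 and 41, and the mean of all probes 35, 37 and 41. With the replicate number as a block, 32, 38 and 42 of the 42 genes were called lower, though no pairing by number is stated. Under the block, permuting within replicate numbers, the shift of Slc25a4 minus Slc25a5 was -0.61 with an adjusted exact permutation p of 0.111. Leaving out each array it ranged from -0.75 to -0.50 (adjusted p from 0.0286 to 0.0714), and that of Cox6a2 minus Cox6a1 from -0.94 to -0.77 (adjusted p from 0.00476 to 0.0619). Genes of the 12 other lists called higher in adult fibroblasts than in cardiomyocytes ranged from 5 to 10, the 5 without cardiomyocyte replicate 3. The cause of these changes was not tested. RMA values carry no background per probe, so signal over background could not be given; all 42 genes had means above the 30th percentile of probes, 6.91.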

Other observations

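For the 6 subunit genes with more than 1 probe of their own, Ndufs3, Uqcrb, Cycs, Cox5b, Cox6c and Cox7b, the probes had the same sign in all 3 comparisons. Ndufs3 gave -1.96 and -1.88 between adult fibroblasts and cardiomyocytes, Cox5b -0.88 and -0.95, and Cox7b -1.46 and -1.65. In the embryonic step Ndufs3 gave -0.89 and -0.84 and Cox5b -0.42 and -0.46. Cox7b, not called there, gave -0.42 with the probe used and -0.70 with the other. Which of these probes also reads processed copies of the gene elsewhere in the genome was not tested. Adult fibroblast replicate 3 had a limma array weight of 0.21, the lowest of the 9 arrays, and its values spread less over all probes (SD 1.71) than those of the other adult arrays (1.83 and 1.85).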
